A study of Xenopus laevis with 6 samples.

Results

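Solute carriers are membrane proteins that move small molecules such as amino acids, sugars, ions, nucleosides and metabolites across the cell surface and the membranes of organelles, either down a gradient or by coupling to another ion. In the frog embryo, where the cells feed on their own yolk, carriers move its breakdown products between compartments, supply precursors for nucleic acids and for the sugar chains of secreted proteins, and link the cytosol with the mitochondria. The carriers described here are all probe sets, the sets of short probes that each report 1 transcript, whose gene symbol in the platform annotation begins with slc and a digit. The array holds 268 of them among 32474 probe sets. Of these, 265 name 1 gene and cover 213 genes, and 3 name several genes and stay unassigned. Symbols end in .L or .S for the homeologs, the pairs of gene copies that this allotetraploid frog keeps on its long and its short chromosome sets: 147 of the genes are L copies, 62 are S copies and 4 carry no mark. A few of the symbols do not stand for carriers. Those of slc9a3r1 and slc9a3r2 belong to adaptor proteins, and slc7a6os is a gene named after its place opposite slc7a6.

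The study compared the dorsal part, split from the ventral part, of Xenopus laevis gastrulae at stage 10.5. The depleted group carried 10 ng of a morpholino oligonucleotide (MO) against apcdd1, and the control group carried a control MO, injected into each of the 2 dorsal blastomeres at the 4-cell stage; a morpholino is an antisense molecule that blocks translation or splicing of its target. Apcdd1 is a membrane protein known to inhibit Wnt and BMP signals. Each group had 3 arrays, each from a batch of 10 embryos grown at 16 degrees C. Labels of the control samples conflict, since their treatment entry gives the apcdd1 MO and their genotype entry a control MO; groups were formed by genotype. Depleted embryos alone were marked with a dye on the ventral side since the lip of the blastopore appeared late in some, so marking, late lip and depletion cannot be told apart in these groups. The labels do not say whether the batches came from separate clutches, so p-values measure only the spread between these batches.

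Median signals of the 6 arrays lay between 44.4 and 45.7, on the linear scale of the deposited table. A probe set was tested if its mean log2 signal reached the 40th percentile of the table, a signal of 22.3. This kept 19484 probe sets, of which 6.62% (1289) differed between the groups at an adjusted p under 0.05 in limma, a linear model fitted to all probe sets with Benjamini-Hochberg adjustment. The gapdh control probe sets gave a ratio of 3' to 5' signal, which tells of RNA breakdown, of 1.87 ± 0.07 in depleted and 1.77 ± 0.03 in control arrays (SD, n = 3 each). Every depleted array (1.82, 1.84 and 1.95) had a higher ratio than every control array (1.75, 1.81 and 1.75). This difference and depletion cannot be told apart in these groups. The targeted gene, apcdd1.L, had signals of 229, 252 and 258 in depleted arrays, against 314, 299.8 and 310.4 in control arrays (log2 change -0.33 ± 0.07, SE, limma adjusted p = 0.027); since a morpholino need not lower the level of its target RNA, this does not measure the depletion. Of 14 dorsal organizer genes on the array 13, among them gsc, chrd.1 and nog, were above the filter. This cannot check the dorsal origin of the tissue. Ventral mesoderm genes (9 of 12) and endoderm genes (13 of 14) reached the filter as well, and no ventral part was among the 6 arrays. Of the 13 organizer genes 4 were lower and 0 higher in depleted arrays. Their summed signal ran from 15768 to 16633 in depleted and from 17899 to 20738 in control arrays. Of 9 measured animal ectoderm genes 4 were higher and 0 lower (summed signal 3082 to 3369 in depleted and 1966 to 2496 in control arrays). The sum holds 1 extreme change, that of foxi1.L, with means of 718 in depleted and 54.2 in control arrays (log2 change 3.73). The other 5 ectoderm genes did not pass, tfap2a.S and grhl3.S with negative changes. Of 9 ventral mesoderm genes 3 were higher and 0 lower (4421 to 4725 in depleted and 3767 to 3996 in control arrays). The other 6 did not pass, szl.S, ventx3.2.S and both homeologs of ventx1.1 with negative changes. Homeologs were counted apart in these marker lists. Among all tested probe sets 3.61% were lower and 3.00% higher. Of 13 endoderm genes 2 were lower and 0 higher, with summed signals of 12377 to 14174 in depleted and 12909 to 14111 in control arrays, and none of the 4 blood markers on the array reached the filter. These shifts go with the same arrays as every result below, and their part in the carrier results was not tested. In pieces of tissue, fewer cells of a type and less RNA per cell cannot be told apart.

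Carrier transcripts that changed were nearly all lower in depleted embryos. Of the 184 tested carrier probe sets, 19 (10.3%) were lower and 1 (0.543%) was higher, against 3.61% lower and 3.00% higher among all tested probe sets. The 20 calls cover 16 genes: slc38a2.L and slc7a3.L for amino acids, slc29a2.L for nucleosides, slc35d1.L and slc35a2.L for nucleotide sugars, both homeologs of slc30a6 and slc30a1.L for zinc, slc2a9.L for sugars and urate, slc5a8.1.L and slc16a3.L for monocarboxylates, and slc25a17.L on 1 of its 2 probe sets, slc25a25.L and both homeologs of slc25a28 among the slc25 carriers were lower, and slc25a44.S was higher. The decreases ran from 1.15-fold to 2.54-fold with a median of 1.40-fold, and 8 of the 19 reached 1.5-fold. In all 20 called probe sets the 3 depleted arrays and the 3 control arrays did not overlap. A call with 3 arrays a group makes this likely, so it is not separate support. The count varied with the array left out. Without control array 2 there were 10 lower and 1 higher, and without depleted array 3 there were 12 lower and 1 higher. There were 3 higher and 15 lower without depleted array 1, and 2 higher and 19 lower without control array 3. The share called among all tested probe sets moved too. It was 3.43% without control array 2 (carriers 5.98%) and 3.77% without depleted array 3 (carriers 7.10%). Without depleted array 1 it was 4.76% (carriers 9.78%), and without control array 3 it was 7.32% (carriers 11.4%). The median log2 change of the tested carrier probe sets was -0.05, against 0.00 for all tested probe sets, and 114 of 184 (62.0%) had a negative change, against 49.9% of all.

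**Figure D1:**
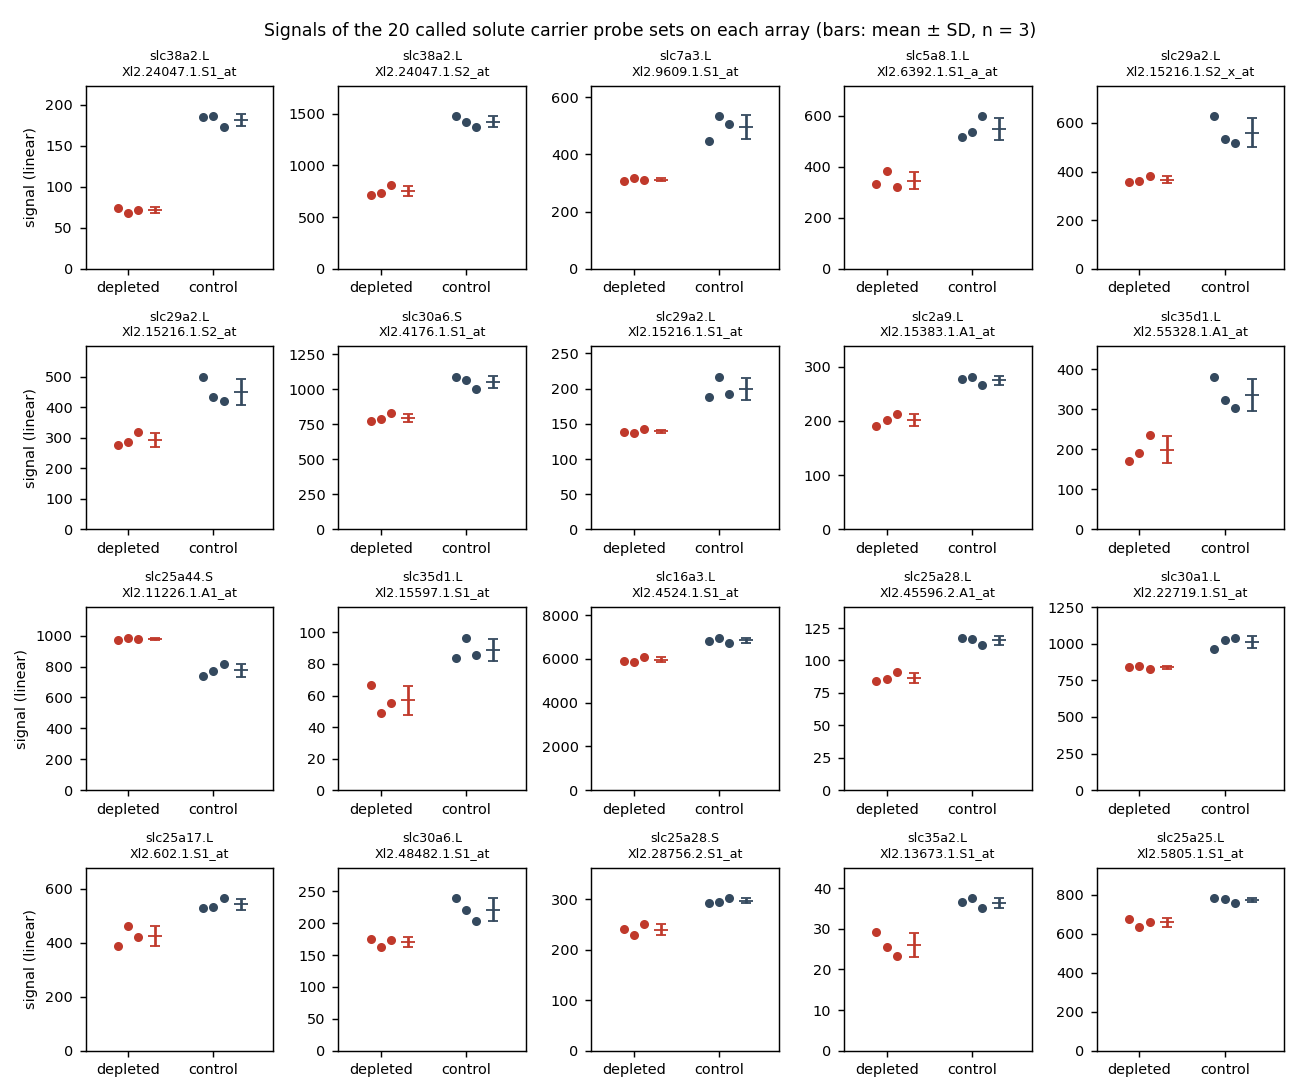
Signal on a linear scale (vertical axes, each starting at 0) of the 20 carrier probe sets that passed the test, for the 3 depleted arrays (left, red) and the 3 control arrays (right, dark), with the mean and SD beside the points. The depleted arrays lie below the control arrays in 19 panels and above them in the panel of slc25a44.S.

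Groups that did not overlap were more frequent downward than upward among carriers. The 3 depleted arrays lay below the 3 control arrays in 48 of 184 probe sets (26.1%), against 12.8% of all tested probe sets, and above them in 16 (8.70%), against 11.9% of all. Of the 164 probe sets that did not pass the test, 135 had a 95% interval of the log2 change within 0.5 of 0, that is within 1.41-fold in either direction, and 29 had a wider or more distant one. The median half-width of the intervals was 0.20 on the log2 scale. Arrays of 1 group differed from each other by a median coefficient of variation of 6.41% in depleted and 6.37% in control arrays. The other 84 carrier probe sets were too dim to test, so nothing is said of their genes except where another probe set of the gene was tested.

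**Figure D2:**
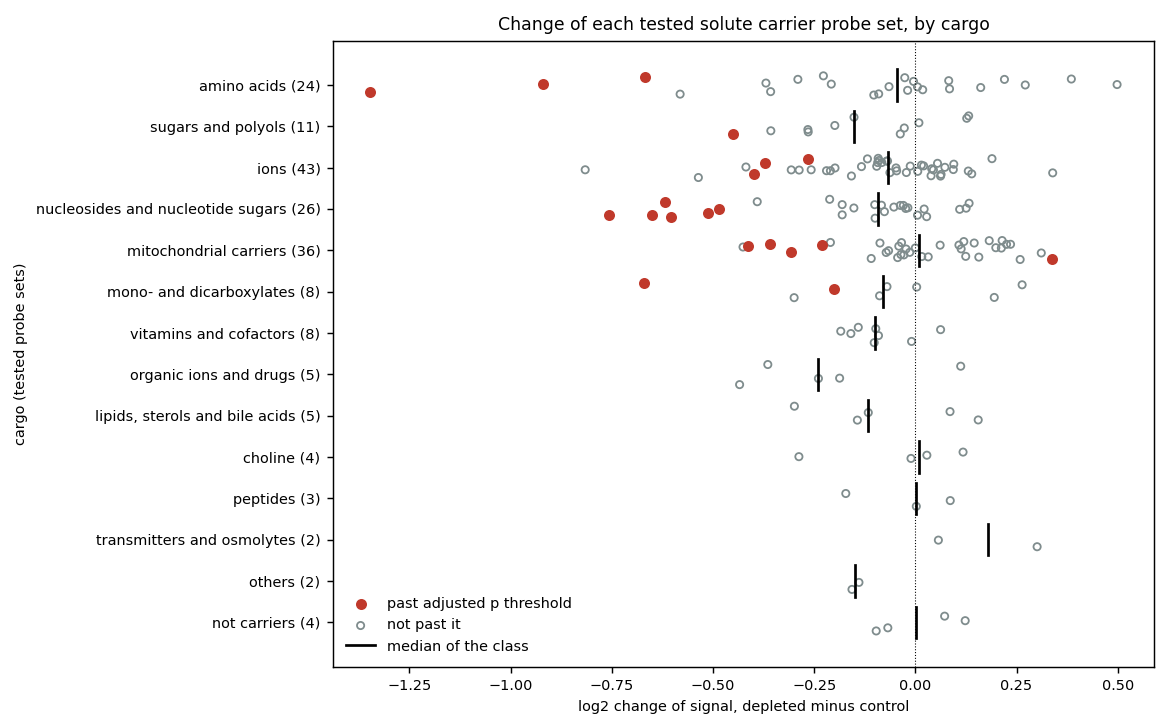
Log2 change of signal, depleted minus control (horizontal axis), of each tested carrier probe set that names 1 gene, sorted by cargo (vertical axis, number of tested probe sets in brackets). Filled points passed the test and vertical lines are the medians of the classes; all filled points except slc25a44.S lie left of 0.

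The cargo classes below were chosen with earlier results of these data known, so their shares called are a description. Amino acid carriers held the largest decrease. slc38a2.L encodes a sodium-coupled carrier of small neutral amino acids, known in mammalian cells for its induction when amino acids are scarce, and is measured by 2 probe sets. On the first its signals were 74.7, 67.5 and 72.1 in depleted arrays, against 185, 186 and 173 in control arrays. On the second they were 716, 733 and 807 in depleted arrays, against 1475, 1417 and 1371 in control arrays. Every depleted array stood below every control array by a wide margin on both. The log2 changes were -1.35 ± 0.08 and -0.92 ± 0.06 (SE; limma adjusted p = 2.0e-05 and 5.0e-05), 2.54-fold and 1.89-fold lower in depleted embryos. With any 1 array left out, limma's adjusted p stayed at or under 4.4e-04 and 9.0e-04. No probe set of the array is annotated to slc38a2.S, so the S copy was not measured under its own name. Of the other slc38 genes, slc38a10.S, an amino acid carrier gene of the same family, had 44.3 ± 2.33 in depleted and 51.2 ± 2.84 in control arrays (SD, n = 3; log2 change -0.21 ± 0.09, limma adjusted p = 0.27), and slc38a7.L had a log2 change of 0.02 ± 0.10; neither passed, and slc38a5.S was too dim to test.

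slc7a3.L encodes a carrier of arginine, lysine and other cationic amino acids. Its signals were 306, 317 and 309.7 in depleted arrays, against 448, 533 and 505 in control arrays. The depleted arrays lay within a narrow band well under the lowest control array. The log2 change was -0.67 ± 0.08 (SE, limma adjusted p = 8.6e-04), 1.59-fold lower, and the call held with each array left out (limma adjusted p from 5.0e-04 to 0.0077). The 7 other tested slc7 probe sets did not pass, with log2 changes between -0.36 (slc7a6.L) and 0.27 (slc7a7.L). slc7a7.L, which encodes a light chain for cationic and neutral amino acid exchange, had positive values on both probe sets, 0.27 ± 0.10 and 0.22 ± 0.07 (SE; limma adjusted p = 0.17 and 0.11). slc3a2.S, which encodes the heavy chain that brings slc7 light chains to the cell surface, had 38.8 ± 3.72 in depleted and 29.8 ± 3.76 in control arrays (SD, n = 3), a log2 change of 0.39 ± 0.12 that did not pass (limma adjusted p = 0.11), although its arrays did not overlap. Without control array 3 it passed as higher (limma adjusted p = 0.040). slc7a5, a partner of slc3a2 for large neutral amino acids, was too dim to test on its 3 probe sets.

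In all, 3 of 24 tested amino acid carrier probe sets were lower and 0 higher (12.5%, against 6.62% called among all probe sets), and the median log2 change was -0.05. The calls fall on 2 of 20 tested genes, since slc38a2.L counts 2 times. Among the probe sets not called, slc36a1.L had the largest positive change of all tested carrier probe sets. Its signals were 31.5, 47.5 and 42.1 in depleted arrays, against 26.4, 28.0 and 30.2 in control arrays (log2 change 0.50 ± 0.15, SE, limma adjusted p = 0.088). slc43a2.L had -0.58 ± 0.23 (SE, limma adjusted p = 0.22). Groups did not overlap on either, and both were singled out after their values were seen. The glutamine carrier gene slc1a5 showed little difference on its brighter probe sets: slc1a5.S had 569.8 ± 12 in depleted and 578 ± 25.2 in control arrays (SD, n = 3), with a 95% interval of the log2 change from -0.16 to 0.12. slc6a14.2.L, a carrier of neutral and cationic amino acids chosen here after its values were seen, had 2561 ± 39.3 in depleted and 2571 ± 114 in control arrays and an interval from -0.12 to 0.11. On both, the difference between the groups was smaller than the spread between arrays of a group.

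Carriers of nucleosides and nucleotide sugars had 6 of 26 tested probe sets called (23.1%, against 6.62% among all), all lower, on 3 of 18 genes, since slc29a2.L counts 3 times and slc35d1.L 2 times. The median log2 change of the class was -0.09, and 20 of 26 were negative. slc29a2.L encodes an equilibrative nucleoside carrier, which lets nucleosides pass the membrane in either direction. On its brightest probe set the signals were 355, 362 and 384 in depleted arrays, against 627, 534 and 517 in control arrays. The highest depleted array was far below the lowest control array. The log2 changes on its 3 probe sets were -0.60 ± 0.08, -0.62 ± 0.09 and -0.51 ± 0.08 (SE; limma adjusted p = 0.0024, 0.0028 and 0.0047), 1.52-fold, 1.54-fold and 1.43-fold lower. The names of the first 2 show a shared design sequence and the ending _x_at marks probes that can bind other transcripts, so these are not independent measurements. All 3 kept an adjusted p under the threshold with each array left out. The related slc29a1, the other equilibrative carrier of the cell surface, did not pass on either homeolog: slc29a1.L had 119 ± 8.63 in depleted and 108 ± 6.28 in control arrays (SD, n = 3; log2 change 0.13 ± 0.09, limma adjusted p = 0.48) and slc29a1.S a log2 change of -0.02 ± 0.11.

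slc35d1.L encodes a carrier that brings UDP-glucuronic acid and UDP-N-acetylgalactosamine into the endoplasmic reticulum, where they serve the synthesis of chondroitin sulfate chains. Its signals were 171, 189.7 and 237 in depleted arrays, against 380.4, 322 and 303 in control arrays on the brighter probe set. On the dimmer one they were 66.7, 48.7 and 55.3 in depleted arrays, against 83.6, 96.8 and 86.0 in control arrays. The groups were apart on both, although depleted array 3 was the highest of its group on the first and depleted array 1 on the second. The log2 changes were -0.76 ± 0.13 and -0.65 ± 0.12 (SE; limma adjusted p = 0.0077 and 0.012). The call of the dimmer probe set ended without depleted array 3 (limma adjusted p = 0.060) and without control array 2 (0.072).

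slc35a2.L encodes the Golgi carrier of UDP-galactose. Its signals were low, 29.2, 25.6 and 23.4 in depleted arrays, against 36.5, 37.5 and 35.1 in control arrays. Each control array was above each depleted one, and the lowest depleted array was just above the filter's signal of 22.3. The log2 change was -0.49 ± 0.11 (SE, limma adjusted p = 0.029), and the call ended when depleted array 2 or 3 or control array 1 or 2 was left out (limma adjusted p up to 0.13). Its homeolog slc35a2.S had 4 tested probe sets, all with negative changes between -0.21 and -0.05, and none passed (lowest limma adjusted p = 0.28). The 17 slc35 probe sets without a call had log2 changes between -0.39 and 0.13. They include slc35a1.L, a carrier of CMP-sialic acid, and both slc35b3 probe sets, which report a carrier of the sulfate donor used in the Golgi.

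Ion carriers were the class with the most tested probe sets, 43, of which 3 were lower and 0 higher (6.98%, against 6.62% called among all), with a median log2 change of -0.07. The count fell to 1 when any depleted array or control array 2 was left out. All 3 were zinc exporters of the slc30 family, which move zinc out of the cytosol to the outside or into the secretory pathway. slc30a6 encodes a subunit that acts in the Golgi together with the product of slc30a5. slc30a6.S had signals of 777, 786 and 833 in depleted arrays, against 1090.0, 1065 and 1003 in control arrays. slc30a6.L had signals of 175, 162 and 174 in depleted arrays, against 239, 220.4 and 204 in control arrays. Both copies were lower in each depleted array than in any control array. The log2 changes were -0.40 ± 0.06 for the S and -0.37 ± 0.08 for the L copy (SE; limma adjusted p = 0.0038 and 0.026). The S call held with each array left out, while the L call held only when the array left out was control 3 (limma adjusted p = 0.014) and otherwise had an adjusted p of up to 0.11. A further slc30a6.S probe set, whose ending _s_at marks probes shared by several transcripts, had -0.21 ± 0.08 and did not pass (limma adjusted p = 0.18). Its name shows the same design sequence as the called slc30a6.L probe set, so which copy it reports is not settled.

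slc30a1 encodes the zinc exporter of the cell surface. slc30a1.L had signals of 839, 852 and 830.2 in depleted arrays, against 964, 1025 and 1043 in control arrays, so the groups were apart but close. The log2 change was -0.27 ± 0.06 (SE, limma adjusted p = 0.023), and slc30a1.S had -0.16 ± 0.07 (limma adjusted p = 0.24). The L call passed with control array 1 left out and with no other array left out (limma adjusted p up to 0.11), and it ended without limma's trend and robust settings (0.061). Over the slc30 family, 3 of 14 probe sets were lower and 0 higher, 11 of 14 had a negative change, and the median was -0.18, against 3.61% lower, 3.00% higher, 49.9% negative and a median of 0.00 among all tested probe sets. slc30a5.L, the partner of slc30a6, was near 0 on both probe sets, with intervals from -0.16 to 0.14 and from -0.31 to 0.19. None of the 5 probe sets of the slc39 family, which brings zinc into the cytosol, passed; their changes lay between -0.12 and 0.14, and the lowest limma adjusted p was 0.41.

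**Figure D3:**
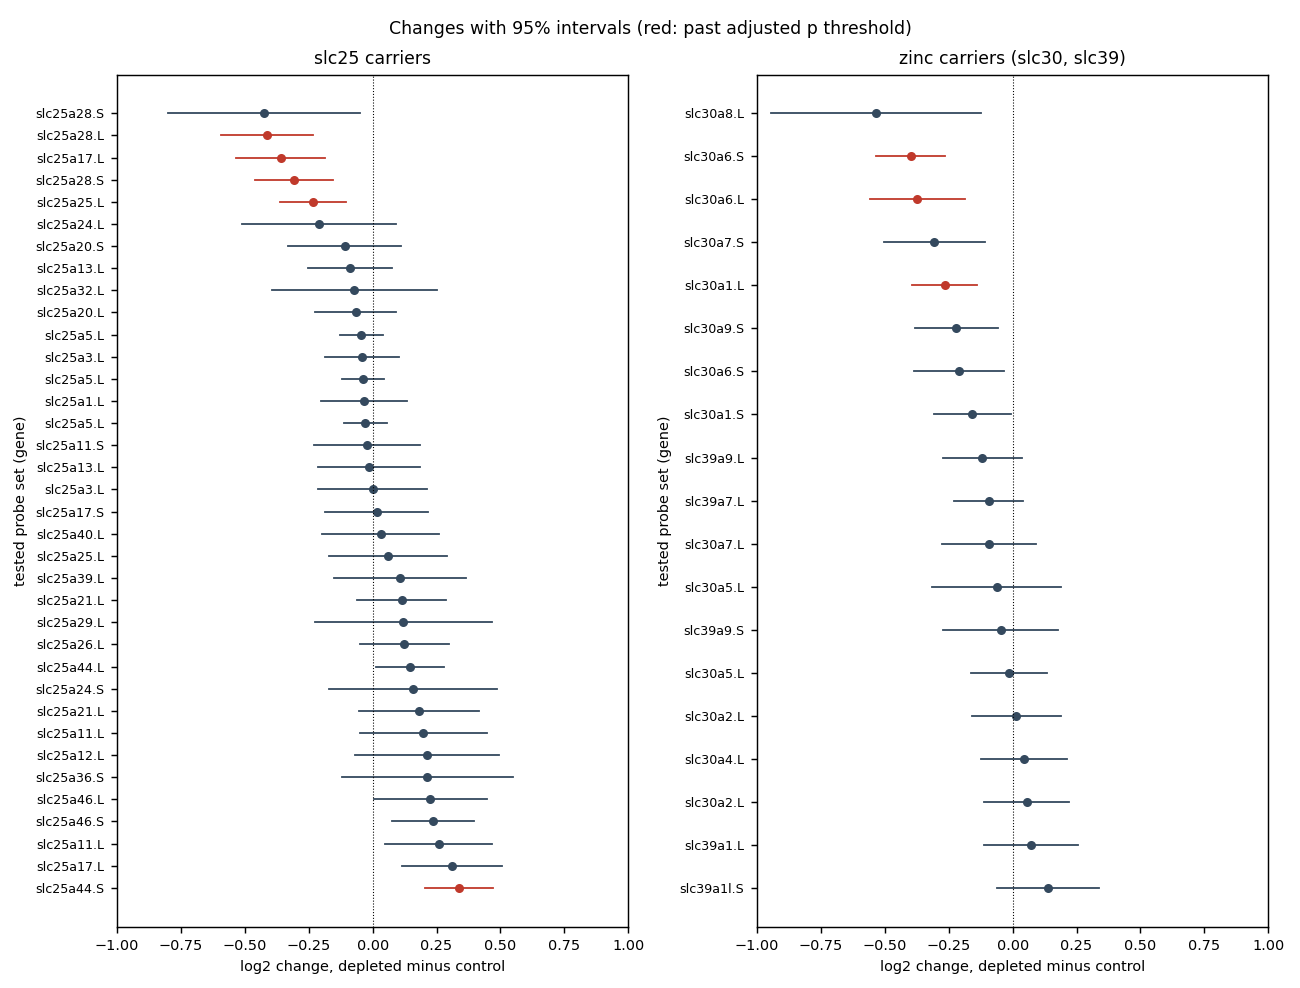
Log2 change of signal, depleted minus control (horizontal axes), with 95% intervals for each tested probe set of the slc25 carriers (left) and of the zinc carriers slc30 and slc39 (right), 1 row per probe set. Red marks those past the threshold: slc25a44.S right of 0 and slc25a28, slc25a17.L, slc25a25.L, slc30a6 and slc30a1.L left of it.

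The 29 tested probe sets of the other ion carriers had no call. The largest change among them, singled out after its values were seen, was that of slc34a2.L, a sodium-phosphate cotransporter gene. Its signals were 76.7, 86.1 and 77.8 in depleted arrays, against 176, 161 and 98.7 in control arrays, with control array 3 far below the other control arrays. Its log2 change was -0.82 ± 0.20 (SE, limma adjusted p = 0.053). The phosphate carrier slc20a1 had 974 ± 53.1 in depleted and 1038 ± 89.5 in control arrays on its L copy and 911 ± 15.9 in depleted and 907 ± 24.8 in control arrays on its S copy (SD, n = 3), with intervals of the log2 change from -0.26 to 0.08 and from -0.12 to 0.13. slc12a2.L, which encodes the sodium-potassium-chloride cotransporter of many cell types, had 78.1 ± 8.59 in depleted and 81.6 ± 2.37 in control arrays and an interval from -0.29 to 0.15.

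Among carriers of sugars and polyols 1 of 11 tested probe sets was lower and 0 higher (9.09%, against 6.62% among all), with a median log2 change of -0.15 and 8 of 11 negative. slc2a9.L belongs to the family of facilitated glucose carriers, and in mammals its product is known as a carrier of urate. Its signals were 191, 201 and 213 in depleted arrays, against 278, 281 and 266 in control arrays. The control arrays lay close together above the depleted ones. The log2 change was -0.45 ± 0.07 (SE, limma adjusted p = 0.0055), 1.37-fold lower, and the call held with each array left out. A second slc2a9.L probe set had -0.20 ± 0.08 and slc2a9.S had -0.26 ± 0.08 (limma adjusted p = 0.22 and 0.081); both also had groups that did not overlap. slc2a1.L, the widespread glucose carrier gene, had signals of 555, 607 and 568 in depleted arrays, against 599, 625 and 887 in control arrays. Control array 3 stood apart there, and the log2 change of -0.27 ± 0.14 did not pass (limma adjusted p = 0.36). slc2a3.L was too dim to test. The sugar-phosphate carriers of the slc37 family had changes between -0.04 and 0.13 on 3 probe sets.

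Carriers of lactate and related acids had 2 of 8 tested probe sets lower and 0 higher (25%, against 6.62% among all). slc5a8.1.L encodes a sodium-coupled carrier of monocarboxylates. Its signals were 332, 385 and 321 in depleted arrays, against 516, 536 and 599 in control arrays. Even the highest depleted array, array 2, was well below the lowest control array. The log2 change was -0.67 ± 0.09 (SE, limma adjusted p = 0.0019), 1.59-fold lower, and the call held with each array left out. slc16a3 encodes the lactate exporter known as MCT4. slc16a3.L had signals of 5923, 5872 and 6089.6 in depleted arrays, against 6824, 6979 and 6741 in control arrays. This was the smallest called change, -0.20 ± 0.04 (SE, limma adjusted p = 0.013), 1.15-fold lower, on a probe set whose arrays varied little. The call ended without depleted array 2 or control array 2 (limma adjusted p = 0.054 and 0.063), and in a fit without limma's trend and robust settings (0.13). slc16a3.S had -0.30 ± 0.09 (limma adjusted p = 0.092). Neither homeolog of slc16a1, the related lactate carrier MCT1, passed: slc16a1.L had 0.19 ± 0.10 and slc16a1.S -0.09 ± 0.07 and 0.00 ± 0.08 on 2 probe sets. bsg.L, which encodes basigin, the partner that carries these lactate carriers to the cell surface, was also lower, with 2364 ± 77.5 in depleted and 2807 ± 209.7 in control arrays (SD, n = 3) and a log2 change of -0.25 ± 0.06 (SE, limma adjusted p = 0.046). That call ended with no filter on dim probe sets (limma adjusted p = 0.060), and bsg.S did not pass (-0.11 ± 0.07, limma adjusted p = 0.43).

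The slc25 family, whose members mostly sit in the inner mitochondrial membrane, was the only one of the 5 named classes with a call in each direction. Of 36 tested probe sets 4 were lower and 1 was higher (13.9%, against 6.62% among all), with a median log2 change of 0.01 and 18 of 36 negative. Without control array 2 the class had 1 call, without depleted array 2 or 3 it had 2, and without depleted array 1 or control array 3 it had 3. slc25a44.S, which encodes a carrier described in mammals for branched-chain amino acids, was the only carrier called higher. Its signals were 975, 988 and 977 in depleted arrays, against 737, 773 and 818 in control arrays. The depleted arrays were nearly equal and above every control array. The log2 change was 0.34 ± 0.06 (SE, limma adjusted p = 0.0085), 1.26-fold higher, and it passed with each array left out (limma adjusted p up to 0.048). slc25a44.L had 1002 ± 23.5 in depleted and 906 ± 42.2 in control arrays (SD, n = 3), a change of 0.15 ± 0.06 in the same direction that did not pass (limma adjusted p = 0.21). A probe set annotated to both slc25a44.S and plk2.L had 0.11 ± 0.12 and did not pass.

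slc25a28 encodes mitoferrin 2, which brings iron into mitochondria. slc25a28.L had signals of 83.8, 85.4 and 91.1 in depleted arrays, against 118, 117 and 112 in control arrays. slc25a28.S had 240.5, 228 and 251 in depleted arrays, against 293, 295 and 302 in control arrays. Both copies were lower in every depleted array than in any control array. The log2 changes were -0.41 ± 0.08 and -0.31 ± 0.07 (SE; limma adjusted p = 0.014 and 0.027). The L call ended without depleted array 2 or control array 2 (limma adjusted p up to 0.079), and the S call passed only when the array left out was control 1 (up to 0.12). A dimmer slc25a28.S probe set had -0.43 ± 0.17 with groups that overlapped. The number in its name is that of the called slc25a28.L probe set, so which copy it reports is not settled.

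slc25a17 belongs to the family by sequence, but its product is known as a carrier of cofactors in the peroxisome membrane. The 2 probe sets of slc25a17.L pointed in opposite directions. On the brighter one the signals were 388, 462 and 420.5 in depleted arrays, against 529, 532 and 565 in control arrays. On the other they were 193, 225 and 227 in depleted arrays, against 163, 179 and 177 in control arrays. The groups did not overlap on either probe set. The first was called lower (-0.36 ± 0.08, limma adjusted p = 0.023), and the second, positive, did not pass (0.31 ± 0.09, limma adjusted p = 0.071) but passed as higher without depleted array 1 (0.035). The call of the first ended without depleted array 1 or 3 or control array 2 (limma adjusted p up to 0.093). No direction is therefore given for slc25a17.L as a gene.

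slc25a25.L encodes a calcium-regulated carrier of ATP-magnesium and phosphate. It had 657 ± 20.9 in depleted and 772 ± 11.8 in control arrays (SD, n = 3), a log2 change of -0.23 ± 0.06 with limma adjusted p = 0.043, and its call ended whichever array was left out (0.057 to 0.17), with quantile normalization (0.054), with no filter (0.063) and without limma's trend and robust settings (0.087). Its dimmer probe set had 0.06 ± 0.10. slc25a5.L, an ADP/ATP carrier gene, had changes between -0.04 and -0.03 on 3 probe sets, and on the brightest its signal was 6508 ± 78.5 in depleted and 6671 ± 77.2 in control arrays with an interval from -0.12 to 0.05. slc25a3.L, the phosphate carrier gene, had 1822 ± 58.6 in depleted and 1877 ± 144 in control arrays and an interval from -0.19 to 0.10. slc25a4.L was too dim to test. slc25a11.L, the oxoglutarate/malate carrier gene, had 0.26 ± 0.09 and 0.20 ± 0.11 on its 2 probe sets (SE; limma adjusted p = 0.16 and 0.38), and slc25a11.S had -0.02 ± 0.09. Both homeologs of slc25a46, whose product acts in mitochondrial shape and which is singled out after its values were seen, had positive changes, 0.23 ± 0.10 for L and 0.24 ± 0.07 for S (SE; limma adjusted p = 0.25 and 0.092), without a call.

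The remaining cargo classes had no call. For vitamins and cofactors, 7 of 8 probe sets were negative with a median log2 change of -0.10, and the lowest p was that of the riboflavin carrier gene slc52a1.L (-0.16 ± 0.08, limma adjusted p = 0.35). For organic ions, 5 probe sets had a median of -0.24, and the lowest p was that of slc22a4.L (-0.36 ± 0.12, limma adjusted p = 0.11), a carrier related to that of carnitine. slc44a4.L of the choline carriers had -0.29 ± 0.11, slc27a3.L of the fatty acid carriers -0.30 ± 0.13, the peptide carrier gene slc15a2.L -0.17 ± 0.08 and the vesicular amine carrier gene slc18a2.L 0.30 ± 0.11; the lowest limma adjusted p among these was 0.17, that of slc18a2.L. Of the 2 genes placed in no cargo class, slc66a2.1.L had -0.16 ± 0.10 and slc17a5.S, a sialic acid carrier gene of the lysosome, -0.14 ± 0.10. The adaptor genes slc9a3r1.L and slc9a3r1.S had -0.07 ± 0.06 and -0.10 ± 0.06, and the 2 probe sets of slc7a6os.L had 0.07 ± 0.08 and 0.12 ± 0.11.

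Homeologs of 25 carrier genes could be set side by side, each represented by its brightest tested probe set. In 11 pairs both changes were negative, in 6 both positive and in 8 opposite, against 447, 406 and 532 of all 1385 pairs on the array. Both copies were called lower for slc30a6 and slc25a28, 2 of 25 pairs, against both copies called in 30 of all 1385. In 6 other carrier pairs 1 copy was called, against 150 of all 1385 pairs. The change of the L copy minus that of the S copy was tested in limma over all these pairs, and 12.6% of those pairs differed. Among the 25 carrier pairs 1 differed (4.00%). For slc25a17 the difference was -0.38 ± 0.09 (SE, limma adjusted p = 0.022), but it rests on the called slc25a17.L probe set, while the other probe set of that gene pointed the other way. This call was lost when depleted array 1, depleted array 3, control array 1 or control array 2 was left out, each giving 0 called pairs, and 2 pairs were called without depleted array 2. The difference was -0.19 ± 0.06 for slc25a44 (limma adjusted p = 0.057) and 0.28 ± 0.09 for slc16a1 (0.066), neither past the threshold.

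Of the 6 pairs with 1 copy called, 5 did not pass the test of the difference between the copies, and slc25a17, above, did. The 95% intervals of the difference, L minus S, ran from -0.32 to -0.06 for slc25a44, which leaves out 0, from -0.24 to 0.02 for slc30a1, from -0.38 to 0.01 for slc2a9, from -0.08 to 0.28 for slc16a3 and from -0.63 to 0.08 for slc35a2. For slc30a6, with both copies lower, the interval ran from -0.13 to 0.18. The changes of the 2 copies correlated with r = 0.63 (Spearman's rho 0.61) across the 25 pairs, against r = 0.45 (rho 0.31) across all 1385 pairs, a description of gene pairs that share the same 6 arrays. Probes designed on 1 homeolog may bind RNA of the other, and this was not tested.

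**Figure D4:**
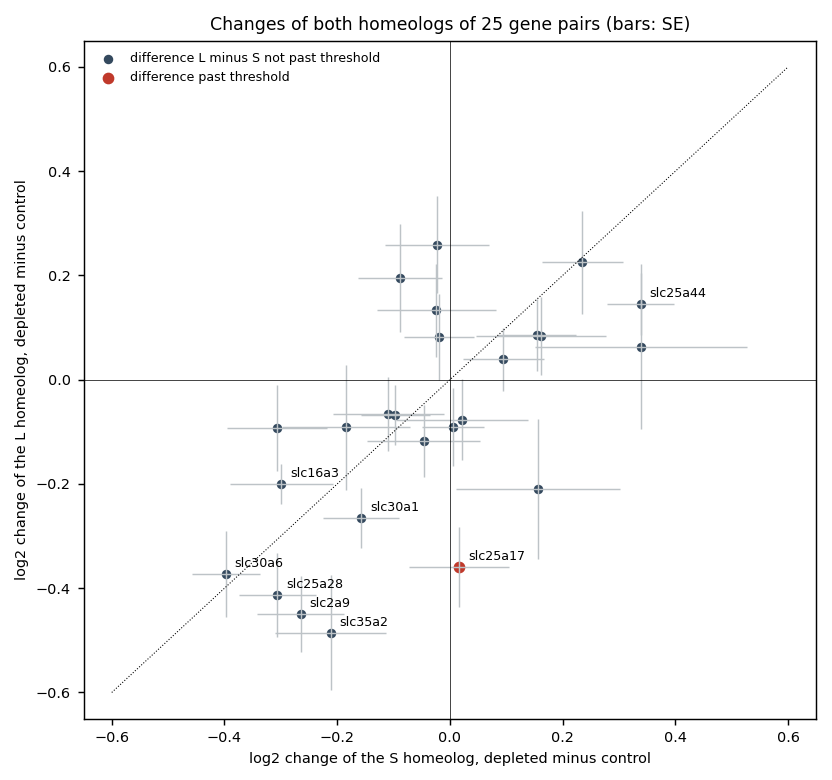
Log2 change of the L homeolog (vertical axis) against that of the S homeolog (horizontal axis), depleted minus control, for 25 carrier genes with SE bars; the dotted line marks equal change. slc25a17, in red, is the pair whose copies differ past the threshold, and slc30a6, slc25a28, slc2a9, slc35a2, slc30a1 and slc16a3 lie with both copies below 0.

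Several probe sets of a gene could be compared within the arrays. Among 28 carrier genes with more than 1 tested probe set, 21 had changes of the same sign on all of them. The same counts were not made over all genes of the array, and some probe sets share design sequence. The counts are therefore a description and do not measure agreement. In 3 genes, slc38a2.L, slc29a2.L and slc35d1.L, all probe sets were called. In 5 genes, slc2a9.L, slc30a6.S, slc25a28.S, slc25a17.L and slc25a25.L, some were called and others not, and of these slc25a17.L and slc25a25.L had probe sets of both signs.

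**Figure D5:**
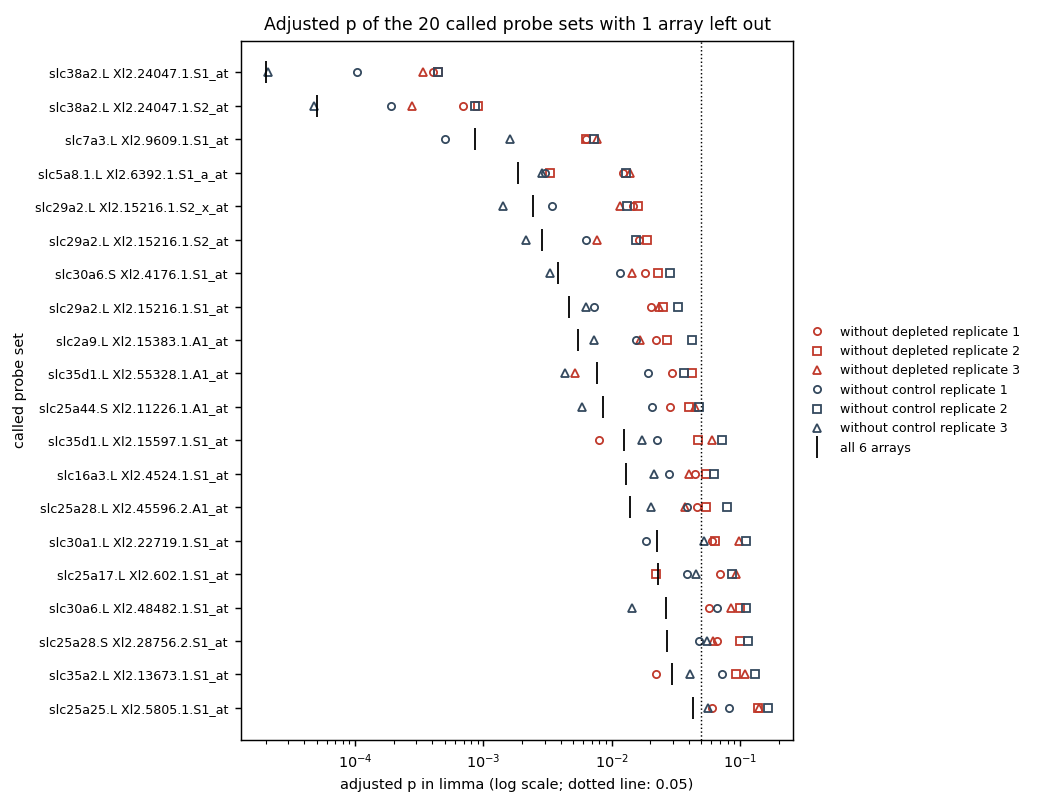
Adjusted p in limma (horizontal axis, log scale) of the 20 called carrier probe sets (rows) with all 6 arrays and with each array left out in turn. For 11 probe sets every point lies left of the dotted threshold, and for slc25a25.L every left-out point lies right of it.

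Genes that work with the carriers were read from 4 lists, each gene by its brightest tested probe set. The lists were chosen with earlier results of these data known, so their counts are a description. In the list of amino acid response genes, those known to be induced in mammalian cells when amino acids run short, 2 of 25 were lower, 2 higher and 21 did not pass, against 6.62% called among all tested probe sets, with a median log2 change of 0.03. The genes of aminoacyl-tRNA synthetases cars1.S and wars1.L were lower, with 84.4 ± 8.52 in depleted and 142 ± 4.21 in control arrays and 72.4 ± 6.18 in depleted and 121 ± 9.86 in control arrays (SD, n = 3). Their log2 changes were -0.75 ± 0.09 (SE, limma adjusted p = 0.0013) and -0.75 ± 0.10 (SE, limma adjusted p = 0.0019). The other synthetase genes of the list did not pass, with log2 changes between -0.15 (gars1.S) and 0.18 (mars1.S). sesn2.S, a sestrin gene of amino acid sensing and stress, and ddit4.S, an inhibitor of growth signalling, were higher, with log2 changes of 0.89 ± 0.09 (SE, limma adjusted p = 3.1e-04) and 0.23 ± 0.05 (SE, limma adjusted p = 0.032). The brighter homeolog sesn2.L had a smaller change of 0.12 ± 0.05 that did not pass (limma adjusted p = 0.26). atf4.L, the transcription factor gene at the head of this response, had 515 ± 16.6 in depleted and 514 ± 11.3 in control arrays (SD, n = 3), a log2 change of 0.00 ± 0.06 (SE, limma adjusted p = 0.99). The arrays measure RNA and not protein, so this value does not tell whether the response was active.

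In the list of amino acid breakdown enzymes, 3 of 34 measured genes were lower, 1 higher and 30 did not pass (median -0.04). Among all tested probe sets 3.61% were lower and 3.00% higher. The list also holds both homeologs of glul, the glutamine synthetase gene, and neither passed. arg1.L, encoding arginase, which splits the arginine that slc7a3 carries, had 192 ± 5.28 in depleted and 387 ± 37.9 in control arrays (SD, n = 3), a log2 change of -1.003 ± 0.08 (SE, limma adjusted p = 1.2e-04). tat.S, encoding tyrosine aminotransferase, was lower too, with a log2 change of -1.71 ± 0.11 (SE, limma adjusted p = 3.1e-05). sds.L, encoding serine dehydratase, was called lower (limma adjusted p = 0.0035), with signals of 14.4, 27.0 and 27.8 in depleted arrays, against 79.8, 96.4 and 80.3 in control arrays; the depleted signals lie around the filter's 22.3, so no fold is given. cbs.S, encoding cystathionine beta-synthase, was higher (0.32 ± 0.07, limma adjusted p = 0.021). Its brighter homeolog cbs.L had a negative change that did not pass (-0.08 ± 0.06, limma adjusted p = 0.52). Of 21 partners and regulators of carriers, 1, bsg.L, was lower and 0 were higher, against the same shares. This list includes slc9a3r1.L and slc9a3r1.S, which were already counted among the tested carrier probe sets. Of 26 measured genes of other transporters, such as ion pumps and ABC carriers, 2 were lower and 1 was higher, again against 3.61% and 3.00% among all: abcg2.L (-0.55 ± 0.14, limma adjusted p = 0.048, or 0.058 with no filter) and mfsd2a.L (-0.52 ± 0.12, limma adjusted p = 0.030), a lysophospholipid carrier gene, against atp2a2.S, a calcium pump gene of the endoplasmic reticulum, with 286 ± 19.7 in depleted and 182 ± 11.4 in control arrays (SD, n = 3) and a log2 change of 0.65 ± 0.08 (SE, limma adjusted p = 0.0014). The list of other transporters also holds abce1.S, abcf1.L and abcf2.L, which belong to the ABC family but are not membrane carriers. None of them passed. gpt.L was counted both among amino acid response genes and among breakdown enzymes, and it did not pass. Over the 4 lists, with 25, 34, 21 and 26 measured genes, 12 genes were called, or 7 without depleted array 3 or control array 2. The share called among all tested probe sets was 6.62%, and it fell to 3.77% without depleted array 3 and to 3.43% without control array 2. The medians of all 4 lists lay between -0.04 and 0.03.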

How the data were processed

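The deposited table holds linear signal intensities of 32634 probe sets on 6 arrays made by the authors; MAS5 is the tool named per the submitters' processing notes, and its version and scaling are not given in the sources used here. Leaving out 160 array control probe sets gave 32474, of which 15494 carry 1 gene symbol in the platform annotation, 279 several and 16701 none. Of the 265 carrier probe sets with 1 symbol, 262 matched RefSeq's gene table by gene ID. Intensities were taken to log2, and 12990 dim probe sets, whose mean on this scale fell below the 40th percentile (4.48), were left out. limma 3.58.1 in R 4.3.3 (lmFit, eBayes with trend and robust settings) compared depleted with control arrays over 19484 probe sets, p-values being adjusted by Benjamini-Hochberg and calls made under 0.05. Homeologs were compared on the log2 ratio of L to S signal in the same way. The code was tested on simulated data. With 3 arrays a group, an exact permutation test of 1 value cannot go below p = 0.1, and none was used. The number of arrays limits the precision. Same-numbered arrays did not deviate together, so no pairing was used.

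The rule for genes named was slc38a2, up to 6 called genes per cargo class and direction by p with their other probe sets and homeologs, a list of widely expressed carriers, and the gene with the lowest p in each class without a call. Other carriers named for their family, as partners or for wide or narrow intervals (among them slc7a6, slc7a7, slc25a11, slc30a5, slc35a1, slc35b3 and slc37) were chosen after their values were seen. The members, cargo classes and partner lists were chosen with earlier results of these data known, and slc7a6os was moved out of the amino acid carriers after the symbols were read. Alternatives were other scalings, an added constant of 16 before the logarithm, other filters, a replicate block, another variance model, array weights and leaving out each array.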

Additional observations from a re-analysis of the deposited data

Results flagged for a closer look

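One dim probe set showed a difference outside the tested data. The probe set Xl2.53073.1.S1_at of slc1a5.L, the glutamine carrier gene, had signals of 14.8, 12.6 and 12.1 in depleted arrays, against 8.92, 9.14 and 10.5 in control arrays, all under the filter's signal of 22.3. With no filter on dim probe sets its log2 change was 0.47 ± 0.11 (SE, limma adjusted p = 0.045), the only call among the 84 untested carrier probe sets. In that fit 3.77% of all probe sets were called, and the share among dim probe sets alone was not counted. The 2 brighter slc1a5.L probe sets had log2 changes of 0.08 and 0.01 and did not pass.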

How the results depend on the processing

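No called carrier changed sign under any alternative, and 11 of the 20 called probe sets passed in all of them: both of slc38a2.L, all 3 of slc29a2.L, and those of slc7a3.L, slc5a8.1.L, slc30a6.S, slc2a9.L, slc25a44.S and the brighter one of slc35d1.L. The count of lower carriers (19) and that of higher carriers (1) ran from 10 to 19 and from 1 to 3 with 1 array left out, and the calls over all probe sets (1289) from 668 to 1426. The share called among all tested probe sets (6.62%) ran from 3.43% to 7.32% in these fits. In the same fits amino acid carriers (3) ran from 3 to 5, sugar carriers (1) from 1 to 2, ion carriers (3) from 1 to 3, nucleoside and nucleotide sugar carriers (6) from 4 to 7, slc25 carriers (5) from 1 to 5, homeolog pairs (1) from 0 to 2 and partner genes (12) from 7 to 11. Quantile normalization and median centring each gave 2 calls for sugar and 5 for ion carriers, with 6.77% and 6.73% of all tested probe sets called. No filter gave 2 higher and 18 lower carriers, with 3.77% of all probe sets called. Array weights gave 4449 calls in all, 22.8% of those tested, with 8 carriers higher and 45 lower, 11 for amino acids, 4 for sugars, 12 for ions, 9 for slc25, 5 homeolog pairs and 29 partner genes; the cause was not tested. The replicate numbers did not pair the arrays (correlations of deviations 0.05, 0.02 and -0.27). With the replicate number as a block, 17 carriers were lower and 1 higher, and 5.65% of all tested probe sets were called. This fit kept 16 of the 20 calls and lost those of slc16a3.L, slc30a1.L, slc25a28.S and slc25a25.L (limma adjusted p from 0.055 to 0.10). It gave 2 calls for sugars and 3 for slc25. Signal near background limits the 84 untested probe sets, and 29 of the 164 uncalled probe sets had intervals reaching past 1.41-fold.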
